A study of Populus qamdoensis and Populus schneideri with 18 samples.

Results

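A set of 55 genes was chosen from the leaf transcriptomes of *Populus schneideri* and *Populus qamdoensis* by a rule on their deposited FPKM values, which are fragments scaled to gene length and library size. Each of these genes was listed at 1 FPKM or more in all 9 *P. schneideri* libraries and below 0.1 FPKM in 8 of the 9 *P. qamdoensis* libraries. They are 55 of the 39194 genes in the table and 0.279% of the 19707 genes that reached 1 FPKM in every *P. schneideri* library. The library labelled *P. qamdoensis* BF replicate 1 took no part in the choice.

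Leaves came from cuttings grown under blue film (BF), green film (GF) and translucent colorless film (WF), and each film and species had 3 libraries, which makes 18. The *P. schneideri* groups are BF, GF and WF leaves, and the *P. qamdoensis* groups are leaves under the same films. The labels give white, blue or green light quality for both species, and the film is described only for *P. qamdoensis*, whose cuttings were propagated asexually from trees of a natural forest in Qamdo. The labels state no clone, plant age or number of days for *P. schneideri*, and nothing says that its replicates came from separate plants, so the spread between them may be technical.

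Related species differ in which genes they carry, in which genes a tissue uses, and in the sequence of the genes they share. Poplars are known for whole-genome duplication and for many tandem copies of genes, and copies next to each other on a chromosome can be gained or lost as a group. Reads of both species were compared here to the genome of *P. yunnanensis*, a relative of both. A gene that a species lacks, a gene that is silent in its leaves, and a gene whose reads do not align to that genome are all listed at or near 0 in such a table. These cases cannot be told apart from FPKM values.

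Neither the table nor the supplementary gene lists of the study pair any of the 55 IDs with a gene name or function, so the genes are given by ID. Of the 55, 33 carry IDs of the reference annotation, such as Pyun10G018510, and 22 are gene models that the authors added outside it. The added models have IDs of the form Populus_yunnanensis_newGene_1408, written below as newGene_1408. Added models made up 40% of the 55 genes, against 1.93% of all genes at 1 FPKM or more in the 9 *P. schneideri* libraries. By kind of gene, the rule took 5.77% of the added models and 0.171% of the reference genes that passed its *P. schneideri* threshold.

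The rule with the species exchanged gave a set of similar size. It chose 59 genes, 0.298% of the 19784 genes at 1 FPKM or more in the 8 *P. qamdoensis* libraries, and 24 of them (40.7%) were added models. This set is called the mirror set below.

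Between 20984 and 22587 genes reached 1 FPKM in each of the 18 libraries. Light-harvesting antenna genes mark green leaf tissue. Only Pyun01G038890, Pyun02G020650 and Pyun16G011210, which the study lists among its differentially expressed genes, were summed here, so the sum is not total antenna expression. Their summed FPKM was 292 to 817 in *P. schneideri*, 284 to 884 in the 8 *P. qamdoensis* libraries and 925 in the library labelled *P. qamdoensis* BF replicate 1. Protochlorophyllide reductase, an enzyme of chlorophyll synthesis, was listed at 8.24 to 42.1 FPKM in *P. schneideri*, 11.7 to 30.5 FPKM in the 8 *P. qamdoensis* libraries and 43.8 FPKM in the library left out. The library left out stood apart from all others. It held 83 genes at 1 FPKM or more that were below 0.1 FPKM in every other library. It was below 0.1 FPKM in 184 genes that were at 1 FPKM or more in every other library. Each of the other 17 libraries had 0 to 2 genes of either kind.

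The species difference chose the 55 genes, so it is described and not tested. In the 8 *P. qamdoensis* libraries 39 of the 55 genes were listed at exactly 0 throughout, and 16 had a value above 0 in at least 1 library. Of the 440 values, 40 were above 0, and the highest was 0.0977 FPKM. No gene was above 0 in all 8 libraries, and the gene detected most often, newGene_3195, was above 0 in 6. Summed over the 55 genes, FPKM was 345 to 451 in *P. schneideri* and 0 to 0.505 in the 8 *P. qamdoensis* libraries. The sum was 0.0601% to 0.0802% of all FPKM in a *P. schneideri* library, lowest in GF replicate 3 and highest in WF replicate 3.

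**Figure D1:**
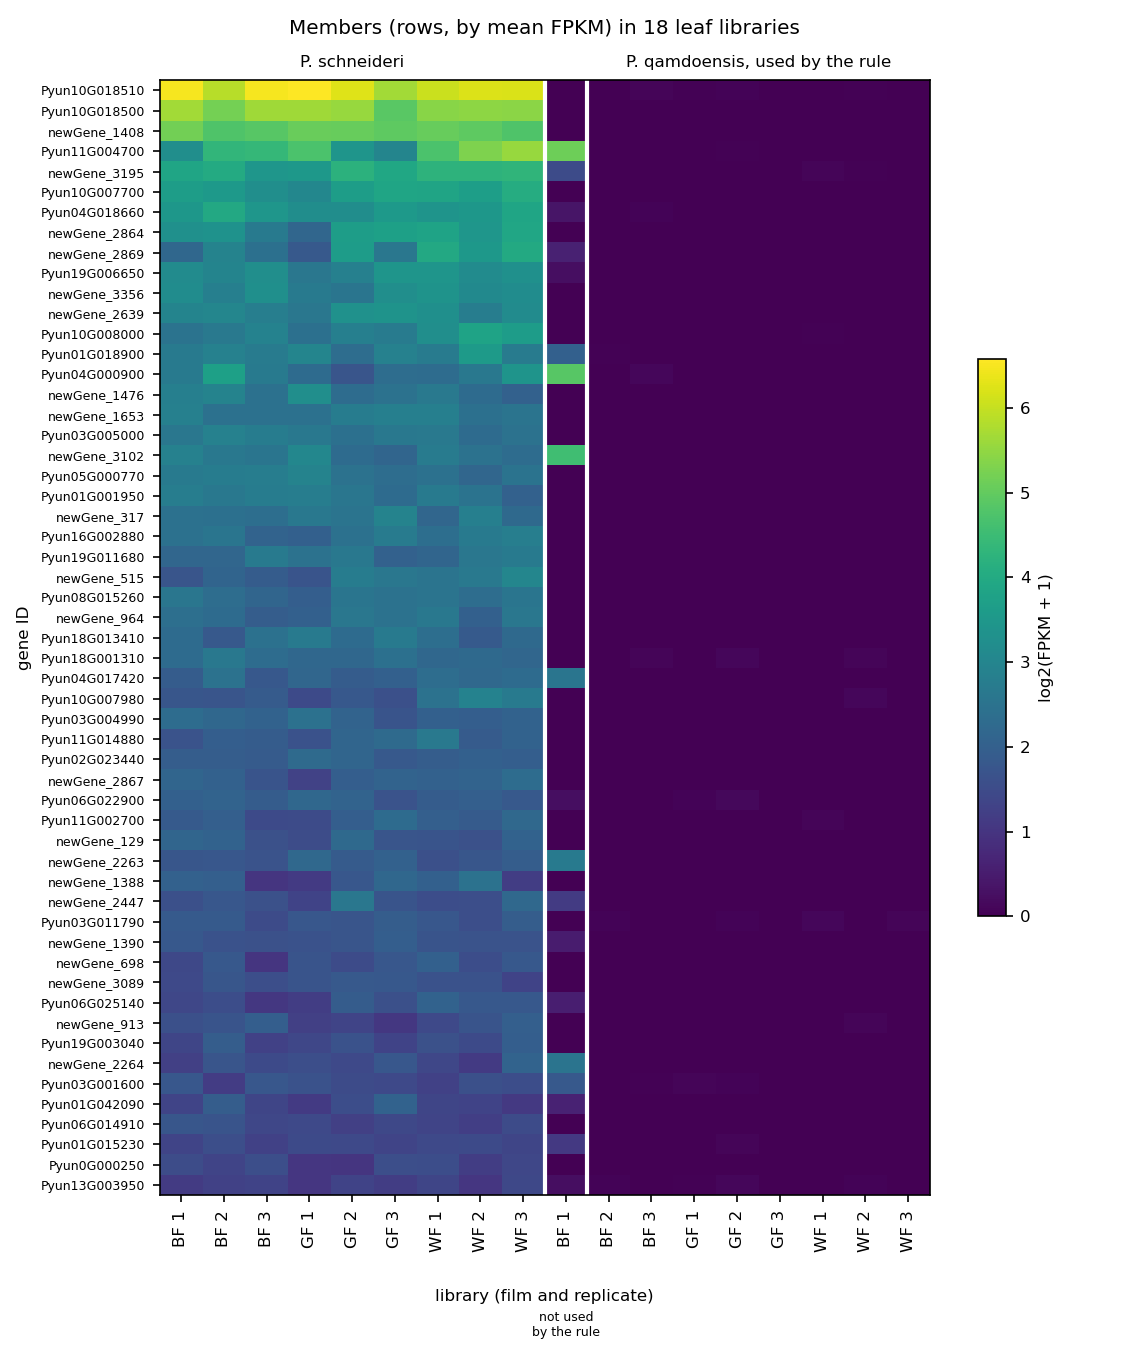
The heat map shows log2(FPKM + 1) of the 55 genes (rows, by mean FPKM in *P. schneideri*) in 18 leaf libraries (columns, by film and replicate). All 9 *P. schneideri* columns are filled, the 8 *P. qamdoensis* columns on the right are at or near 0, and the library labelled *P. qamdoensis* BF replicate 1, between the white lines, is filled for some genes only.

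Genes at the edges of the rule had values close to those just outside it. The lowest *P. schneideri* value of a chosen gene was 1.02 FPKM in Pyun0G000250, 1.03 FPKM in newGene_1388 and 1.03 FPKM in newGene_698. Just outside, Pyun17G002890 fell short at 0.987 FPKM, Pyun05G000910 at 0.976 FPKM and Pyun07G013510 at 0.974 FPKM. At the other threshold, the highest *P. qamdoensis* values inside were 0.0977 FPKM in Pyun06G022900, 0.0914 FPKM in Pyun04G000900 and 0.0848 FPKM in Pyun13G003950. Pyun0G000880, at 0.101 FPKM, Pyun17G014600, at 0.107 FPKM, and Pyun12G011280, at 0.109 FPKM, were left out. The last pair had at least 12.4 FPKM and 18.5 FPKM in every *P. schneideri* library, so the rule left out genes of higher level than most of those it took.

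Most of the 55 genes had low transcript levels in *P. schneideri* leaves. Their mean over the 9 libraries ran from 1.36 to 74.1 FPKM with a median of 4.05 FPKM, and 34 of the 55 were below 5 FPKM. The other genes at 1 FPKM or more in all 9 libraries had a median of 11.1 FPKM. Only 7 of the 55 genes (12.7%) had a mean of 10 FPKM or more, against 53.7% of those other genes. The mirror set had a similar median in the 8 *P. qamdoensis* libraries, 4.23 FPKM. The median was 4.22 FPKM for the 22 added models and 3.94 FPKM for the 33 reference genes, so the kind of gene made little difference to the level.

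The 2 most abundant genes carry neighbouring IDs on the chromosome numbered 10. Pyun10G018510 was listed at 89.2, 57.4 and 89.1 FPKM under BF, 94.5, 75.5 and 49.3 FPKM under GF and 65.6, 73.7 and 73.1 FPKM under WF, a mean of 74.1 ± 15.1 FPKM in *P. schneideri* (SD, n = 9). Pyun10G018500 was listed at 49.7, 35.7 and 48.6 FPKM under BF, 48.5, 46.3 and 28.8 FPKM under GF and 41.4, 43.2 and 41.9 FPKM under WF, a mean of 42.7 ± 6.85 FPKM (SD, n = 9). Both were lowest in GF replicate 3 and next lowest in BF replicate 2, and the 3 films overlapped. GF replicate 3 also had the lowest antenna sum, 292 FPKM, and the lowest protochlorophyllide reductase level, 8.24 FPKM, of the *P. schneideri* libraries, and the part of this in the result was not tested. In the 8 *P. qamdoensis* libraries Pyun10G018500 was listed at 0 throughout and Pyun10G018510 did not exceed 0.0621 FPKM. In each *P. schneideri* library Pyun10G018510 was 1.59 to 1.95 times as high as Pyun10G018500, with a median of 1.71 times.

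The next levels were spread over several chromosomes. The added model newGene_1408 had 26.2 to 35.0 FPKM in *P. schneideri* and 0 in all 9 *P. qamdoensis* libraries. It varied least of all 55 genes, by 1.34 times between its lowest and highest *P. schneideri* library. Pyun11G004700 varied most, by 6.56 times. It was listed at 8.499, 19.2 and 19.8 FPKM under BF, 25.3, 9.85 and 7.001 FPKM under GF and 25.1, 38.3 and 45.9 FPKM under WF. Its 3 WF libraries were above all 3 BF libraries but overlapped with GF, where replicate 1 reached the level of WF replicate 1.

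The other genes of the 10 highest means lay close together. Their *P. schneideri* ranges were 9.87 to 18.7 FPKM for newGene_3195, 7.28 to 15.7 FPKM for Pyun10G007700 and 8.34 to 14.8 FPKM for Pyun04G018660. The ranges were 3.47 to 13.95 FPKM for newGene_2864, 2.59 to 15.1 FPKM for newGene_2869 and 5.13 to 9.77 FPKM for Pyun19G006650. Given in order of their means, each of these 6 ranges overlapped with the next, although the range of Pyun19G006650 lay below that of newGene_3195. Over all 55 genes, 32 varied by less than 2 times between the lowest and the highest *P. schneideri* library and 5 by more than 4 times. The median was 1.95 times, against 1.60 times for the other genes at 1 FPKM or more in all 9 libraries. Within a film, the median SD on the log2(FPKM + 1) scale was 0.27 for the 55 genes and 0.18 for those other genes, whose levels were higher.

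The film comparison asked whether light quality changed the level of these genes in *P. schneideri*. The rule did not use the films, although a gene that dropped below 1 FPKM under any film could not be chosen. All 55 genes passed the filter of a mean of 0.5 FPKM and were tested in limma with 23821 genes in all, on the log2(FPKM + 1) scale, which understates the change of low genes. A gene was called where its p, adjusted by Benjamini-Hochberg over these genes, was below 0.01 and it changed by 1.5 times or more. None of the 55 genes was called in BF vs WF, in GF vs WF or in BF vs GF, and none passed the moderated F test over films at that adjusted p. Few of the tested genes were called at all, 0.0252% in BF vs WF, 0.042% in GF vs WF, 0.0% in BF vs GF and 0.0294% in the F test, so a count of 0 among 55 genes lies near the background. The number of genes called overall was not stable. In BF vs WF it was 6, but 114 (0.478%) with only the 6 libraries compared and 1 to 48 with each library left out, the highest without GF replicate 1 and the lowest without BF replicate 3. In GF vs WF it was 10, and 1 to 13 with each library left out, the lowest without WF replicate 1. None of the 55 genes was among those called in any of these fits.

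At an unadjusted limma p below 0.05 the counts also lay near the background. In BF vs WF 8 of the 55 genes passed, against 15.6% of all genes tested, and 7 of them were lower under BF, against 10.3% of all genes tested. In GF vs WF 5 passed, against 12.1%, and all 5 were lower under GF, against 8.95%. In BF vs GF 2 passed, against 6.49%, and 7 passed the F test, against 13.4%. The median log2 fold change of the 55 genes was -0.04 in BF vs WF, -0.07 in GF vs WF and 0.01 in BF vs GF. Over all genes tested it was -0.04, -0.07 and 0.02 in the same comparisons.

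Counts of genes whose libraries did not overlap between films were as follows. In BF vs WF 11 of the 55 genes did not overlap, 2 higher and 9 lower under BF, against 26.4% of all genes tested. In GF vs WF 6 did not overlap, 1 higher and 5 lower under GF, against 18.2%. In BF vs GF 4 did not overlap, 2 in each direction, against 9.56%. By film mean, 16 of the 55 genes were highest under BF, 14 under GF and 25 under WF. Of all genes tested, 31.9% were highest under BF, 21% under GF and 47.1% under WF.

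A weaker threshold, an adjusted p below 0.05 with no fold threshold, was met by Pyun10G007980. The gene was listed at 2.38, 2.34 and 2.67 FPKM under BF, 1.79, 2.49 and 2.07 FPKM under GF and 4.57, 6.51 and 5.47 FPKM under WF. All 6 libraries under colored film were below all 3 under WF. In GF vs WF the log2 fold change was -1.06 ± 0.15 (SE), with an adjusted p of 0.0288 in limma, and in BF vs WF it was -0.90 ± 0.15, with an adjusted p of 0.0569. The adjusted p of the F test was 0.0366. At the weaker threshold this was 1 of 55 genes in GF vs WF, against 0.34% of all genes tested, and 1 of 55 in the F test, against 0.315%. The adjusted p in GF vs WF depended on the WF libraries and the fit. It was 0.0692 without WF replicate 1, 0.174 without WF replicate 2 and 0.0826 without WF replicate 3, and 0.052 with a replicate block, 0.0665 with only the 6 libraries compared and 0.114 without the filter. The exact two-sided permutation test gave 0.1 for either film against WF, the smallest p that 3 libraries against 3 allow.

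Pyun10G008000, whose ID lies close by, had the same order of films. It was listed at 4.63, 5.36 and 6.53 FPKM under BF, 4.41, 6.11 and 5.61 FPKM under GF and 8.54, 13.1 and 11.5 FPKM under WF. Again the 6 libraries under colored film were below the 3 under WF. The log2 fold change was -0.88 ± 0.18 (SE) in BF vs WF, with an adjusted p of 0.0851, and -0.91 ± 0.18 in GF vs WF, with an adjusted p of 0.0661. In each *P. schneideri* library this gene was 1.87 to 2.71 times as high as Pyun10G007980.

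The largest differences in BF vs WF among genes with no overlap missed the threshold by more. The added model newGene_2869 had 3.60, 6.68 and 4.38 FPKM under BF and 14.8, 10.3 and 15.1 FPKM under WF, a log2 fold change of -1.30 ± 0.38 (SE) and an adjusted limma p of 0.161. That adjusted p was 0.0137 with only the 6 libraries compared and 0.0349 without GF replicate 1, and ran to 0.407 without WF replicate 2. Its GF libraries, at 2.59, 11.5 and 5.07 FPKM, overlapped with both other films. Pyun11G004700 had a log2 fold change of -1.20 ± 0.43 in BF vs WF, with an adjusted p of 0.231. In the other direction Pyun05G000770 averaged 5.74 ± 0.212 FPKM under BF and 4.20 ± 0.615 FPKM under WF (SD, n = 3 each), a log2 fold change of 0.38. Pyun18G001310 averaged 4.36 ± 0.743 FPKM under BF and 3.60 ± 0.151 FPKM under WF, a log2 fold change of 0.21.

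In GF vs WF the 1 gene that was higher without overlap was newGene_3089, with 2.45 ± 0.149 FPKM under GF and 1.96 ± 0.380 FPKM under WF (SD, n = 3 each) and a log2 fold change of 0.23. In BF vs GF Pyun04G000900 averaged 7.80 ± 3.98 FPKM under BF and 3.43 ± 0.971 FPKM under GF, a log2 fold change of 0.93, and newGene_913 averaged 2.41 ± 0.468 FPKM under BF and 1.33 ± 0.231 FPKM under GF, a log2 fold change of 0.55. The genes with lower BF libraries were newGene_2263, at -0.31, and newGene_317, at -0.27 on the same scale. None of these differences passed the test over all genes, with an adjusted limma p of 0.58 or higher for each, although all were chosen for libraries that did not overlap.

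**Figure D2:**
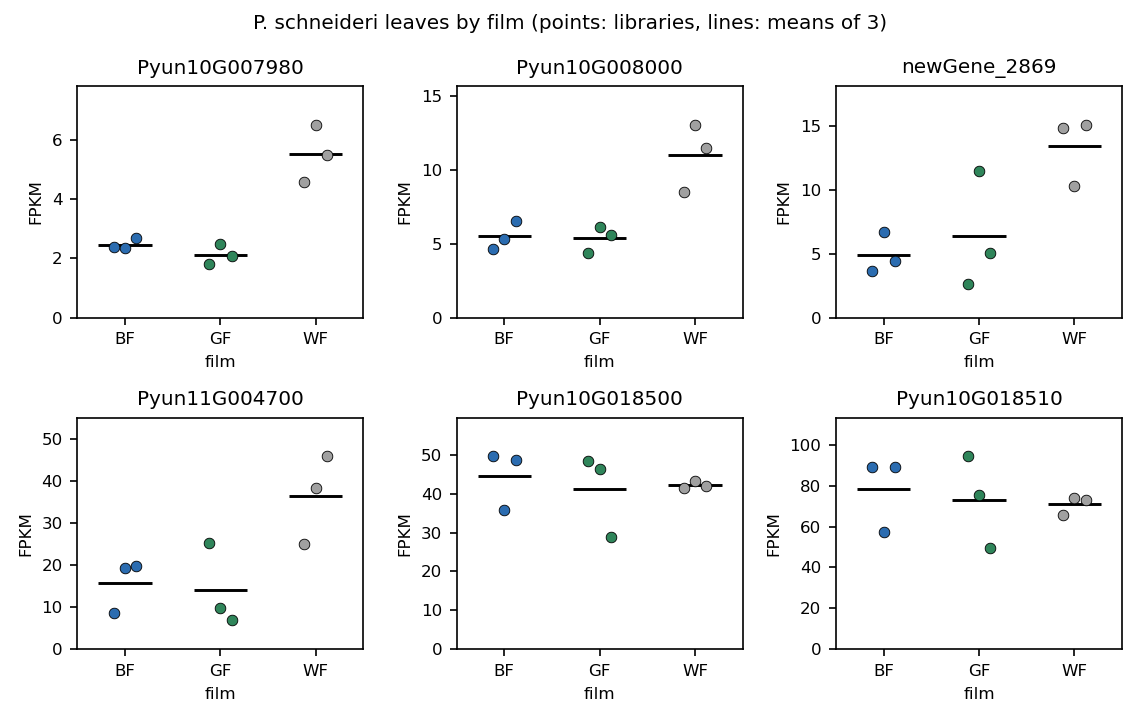
FPKM of 6 of the 55 genes in *P. schneideri* leaves under BF, GF and WF, with 1 point per library and a line at the mean of 3, on axes that start at 0. Pyun10G007980 and Pyun10G008000 have all 6 BF and GF points below the 3 WF points, newGene_2869 and Pyun11G004700 have WF above BF only, and the films overlap in Pyun10G018500 and Pyun10G018510.

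The library labelled *P. qamdoensis* BF replicate 1 was not used by the rule, so its values are a separate readout of the 55 genes. They followed neither species. In this library 11 of the 55 genes reached 1 FPKM, 8 lay between 0.1 and 1 FPKM and 36 were listed at 0. Of all genes at 1 FPKM or more in the 9 *P. schneideri* libraries, 93.8% reached 1 FPKM in it. Of the 59 genes of the mirror set, 20 reached 1 FPKM in it and 30 were listed at 0. Over both sets together, 66 of 114 genes were at 0. The 55 genes summed to 113 FPKM in this library.

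The same reading, added after the data were seen, was made for every other library by leaving it out of the rule as well. The genes chosen without a library then always include the original set, so only the few genes added, where there were any, are a separate reading. Genes of the original set meet the rule in that library too. The share at 1 FPKM or more therefore departs from 100% or 0% only through the genes added. With a *P. schneideri* library left out, 55 to 58 genes were chosen, and 94.8% to 100% of them reached 1 FPKM in it. With 1 of the other 8 *P. qamdoensis* libraries left out, 55 to 57 genes were chosen, and 0% reached 1 FPKM in it. The share was 20% in the library labelled *P. qamdoensis* BF replicate 1. For the mirror rule the shares were 0% in each *P. schneideri* library left out, 88.1% to 100% in those 8 *P. qamdoensis* libraries and 33.9% in the library labelled *P. qamdoensis* BF replicate 1. The rules all but fixed the shares of the other libraries, so they are no comparison for the 20% and 33.9%. The reason for the values of the library labelled *P. qamdoensis* BF replicate 1 was not tested.

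**Figure D3:**
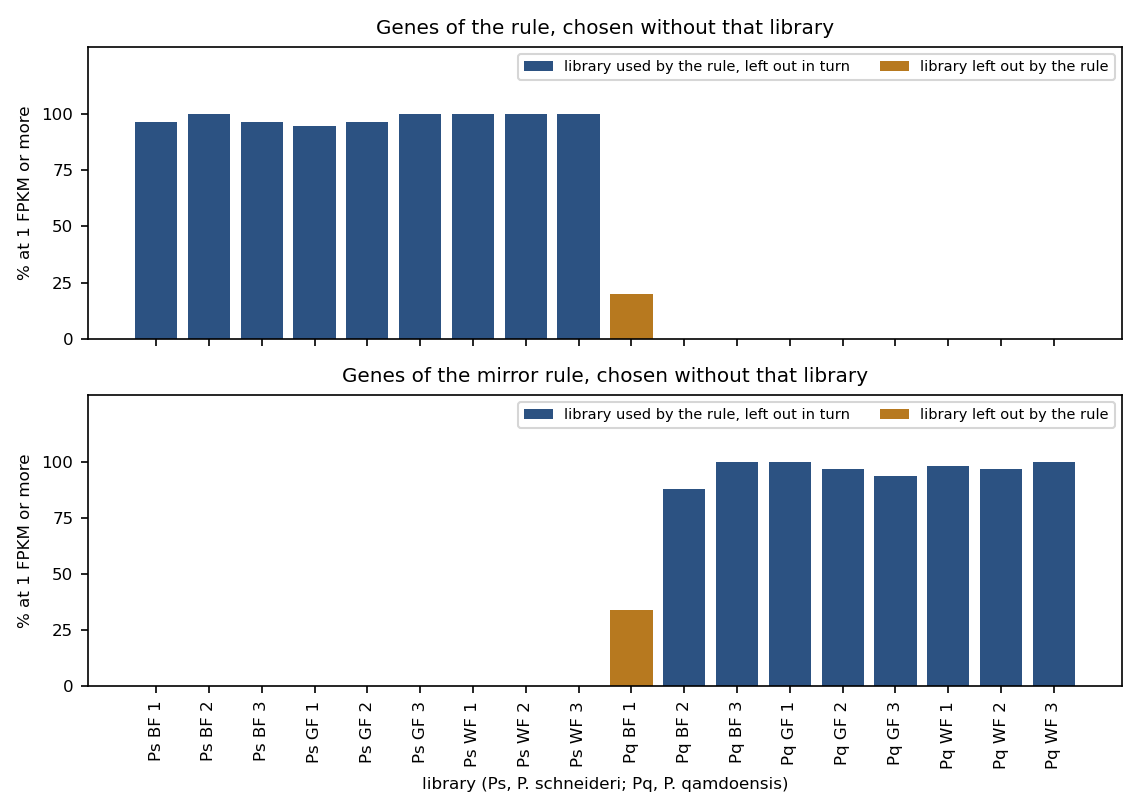
Bars give the share of genes at 1 FPKM or more in the library on the horizontal axis, among genes chosen without it by the rule (top) or by the mirror rule (bottom). *P. schneideri* libraries reach 94.8% to 100% and 0%, 8 *P. qamdoensis* libraries reach 0% and 88.1% to 100%, and the library labelled *P. qamdoensis* BF replicate 1 reaches 20% and 33.9%. Only in that library did the rules leave the shares free. The bars of all other libraries were fixed apart from the few genes added, so they are no comparison for it.

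The 11 genes were 5 added models and 6 reference genes. Of the 19 genes above 0 in the library left out, 6 were above every *P. schneideri* library, 1 lay inside the *P. schneideri* range and 12 were below it. Pyun04G000900 was listed at 2.31 to 12.4 FPKM in *P. schneideri* and 28.3 FPKM in the library left out, 4.87 times the *P. schneideri* mean. The added model newGene_3102 was listed at 3.42 to 7.29 FPKM in *P. schneideri* and 22.8 FPKM in that library. The consecutively numbered models newGene_2263 and newGene_2264 had 2.06 to 3.65 FPKM and 1.18 to 3.25 FPKM in *P. schneideri*, and 5.53 and 4.77 FPKM in that library.

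Pyun11G004700 was the gene inside the range, with 7.001 to 45.9 FPKM in *P. schneideri* and 33.9 FPKM in the library left out. Other genes of high *P. schneideri* level were absent from the same library. Pyun10G018510, Pyun10G018500 and newGene_1408, the 3 most abundant of the 55 genes, were all listed at 0 in it. The lowest ratios above 0 were 0.0241 for Pyun19G006650 and 0.027 for Pyun04G018660, relative to the *P. schneideri* mean.

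Position was read from the gene IDs, in which the digits before G number the chromosome and those after it number the gene along it. No annotation of the genome was used, so distances are counted in gene numbers and not in bases, and the 22 added models have no position. The 33 reference genes lay on 14 of 20 chromosome numbers, where 0 is counted as 1 of the 20. The chromosome numbered 10 held 5 of them (15.2%), against 6.73% of the reference genes at 1 FPKM or more in the 9 *P. schneideri* libraries. The chromosomes numbered 1 and 3 held 4 each (12.1%), against 11.9% and 5.65% of those expressed reference genes. Those numbered 7, 9, 12, 14, 15 and 17 held none, against 3.45% to 5.27% each. With 33 genes these counts are small, and they were not tested.

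Some genes of the set lay beside each other. Within 5 gene numbers of another gene of the set were 6 of the 33, which form 3 pairs, and in 2 of these pairs the gene numbers were consecutive. Among the 35 reference genes of the mirror set, 0 lay within 5 gene numbers of another. No gene of the set had a mirror gene within 10 gene numbers. The nearest such neighbours were Pyun19G011680 and the mirror gene Pyun19G011790, 11 gene numbers apart.

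The first pair, Pyun10G018500 and Pyun10G018510, is the pair of highest level described above. The genes on either side, Pyun10G018490 and Pyun10G018520, were listed at 0 in all 18 libraries. The second pair, Pyun03G004990 and Pyun03G005000, averaged 3.32 ± 0.638 and 5.11 ± 0.749 FPKM in *P. schneideri* (SD, n = 9) and was at 0 in all 9 *P. qamdoensis* libraries. Beside it, Pyun03G005010 was expressed alike in both species, at 15.1 ± 1.03 FPKM in *P. schneideri* (SD, n = 9) and 13.3 ± 0.756 FPKM in the 8 *P. qamdoensis* libraries, and at 14.6 FPKM in the library left out.

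Around the last pair, Pyun10G007980 and Pyun10G008000, several genes outside the set differed between the species as well. These neighbours were picked out after their values were seen. Pyun10G007990, which lies between the pair, was listed at 8.93 ± 1.83 FPKM in *P. schneideri* (SD, n = 9) and 120 ± 8.23 FPKM in the 8 *P. qamdoensis* libraries (SD, n = 8), the opposite order to the pair around it. It was at 1.35 FPKM in the library labelled *P. qamdoensis* BF replicate 1, below all 17 other libraries. Pyun10G007970 averaged 5.22 ± 2.35 FPKM in *P. schneideri* and 0.0970 ± 0.0954 FPKM in the 8 *P. qamdoensis* libraries, and Pyun10G008030 averaged 4.21 ± 1.91 FPKM in *P. schneideri* and 0.0974 ± 0.101 FPKM in those 8. Both were above 0.1 FPKM in at least 1 of the 8 *P. qamdoensis* libraries, which kept them out of the set.

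WF was also the highest film by mean in several of these neighbours, as in 47.1% of all genes tested. Of those 23821 genes, 4093 were lower without overlap in BF vs WF and 3159 in GF vs WF. WF was not highest in Pyun10G007920, Pyun10G007930 and Pyun10G007940, also nearby by ID. Pyun10G007920 averaged 2.70 FPKM under BF and 2.39 FPKM under WF, and Pyun10G007940 averaged 9.58 and 8.49 FPKM. Pyun10G007930 averaged 5.97 FPKM under GF and 4.38 FPKM under WF, without overlap. Pyun10G007970 averaged 4.05 ± 0.651 FPKM under BF, 3.54 ± 0.918 FPKM under GF and 8.06 ± 1.53 FPKM under WF (SD, n = 3 each), with an adjusted limma p of 0.102 in BF vs WF and 0.0541 in GF vs WF. Pyun10G008030 averaged 2.86 ± 0.522, 3.17 ± 0.742 and 6.58 ± 0.981 FPKM under BF, GF and WF, with an adjusted p of 0.0666 in BF vs WF and 0.0728 in GF vs WF. In both genes the libraries under BF and under GF were all below those under WF. The same held for Pyun10G007960, at 3.50 ± 0.516 FPKM under BF, 4.89 ± 1.37 FPKM under GF and 7.45 ± 0.472 FPKM under WF. For Pyun10G008040 it held under BF only, with a log2 fold change of -1.33 in BF vs WF and an adjusted p of 0.0783. Both of these genes were expressed in *P. qamdoensis* as well. Pyun10G007960 averaged 5.28 ± 1.90 FPKM in *P. schneideri* (SD, n = 9) and 2.15 ± 0.416 FPKM in the 8 *P. qamdoensis* libraries, and Pyun10G008040 averaged 4.42 ± 2.52 FPKM in *P. schneideri* and 1.15 ± 0.639 FPKM in those 8. Pyun10G007990 was likewise highest under WF by its mean, but its libraries overlapped, at 8.05 ± 0.661 FPKM under BF, 8.60 ± 1.17 FPKM under GF and 10.1 ± 2.86 FPKM under WF. WF had the highest mean in 2 further neighbours. Pyun10G007950 averaged 3.09, 3.30 and 3.63 FPKM under BF, GF and WF, and its libraries overlapped. Pyun10G008020 averaged 0.911, 1.08 and 1.73 FPKM in that order, and was lower without overlap in BF vs WF only. Whether reads are shared between near-identical copies at this place is not known from FPKM values.

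**Figure D4:**
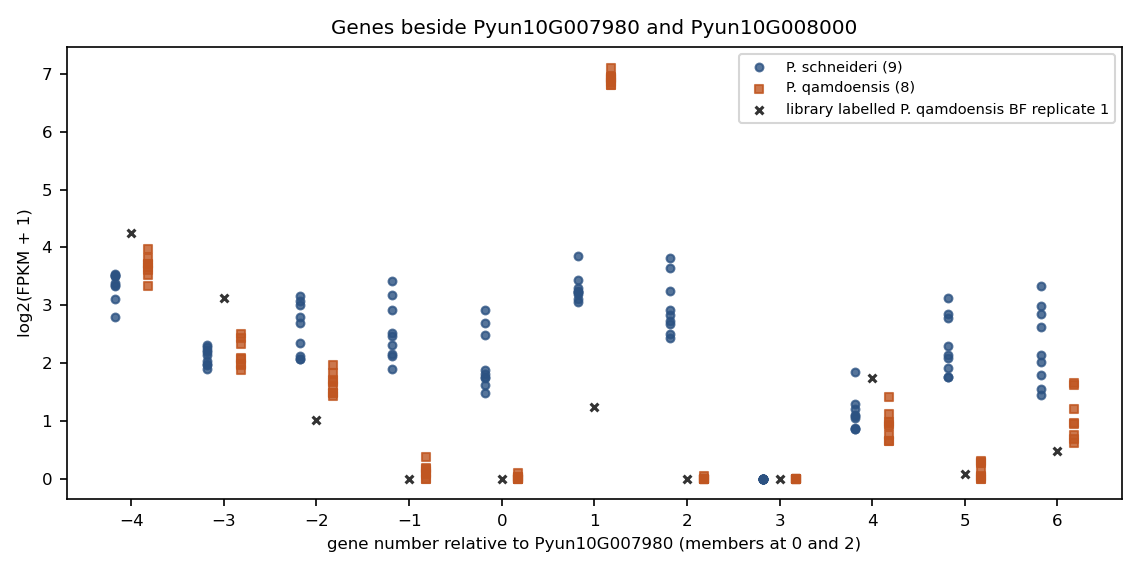
log2(FPKM + 1) of Pyun10G007980, Pyun10G008000 (at 0 and 2 on the horizontal axis) and the genes beside them, by gene number, with 1 point per library. The pair and the genes at -1 and 5 are high in *P. schneideri* and near 0 in *P. qamdoensis*, whereas the gene at 1 averages 8.93 FPKM in *P. schneideri* and 120 FPKM in *P. qamdoensis*.

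Over all 33 reference genes, the surroundings were expressed in both species to a like extent. Beside them lay 61 next genes that were not in the set. Of these, 27 (44.3%) averaged 1 FPKM or more in both species, against 54.2% of all reference genes in the table. A further 3 reached that mean in *P. schneideri* only, 4 in *P. qamdoensis* only and 27 in neither. In 22 of the 27 expressed in both, the species means were within 1.5 times of each other. A next gene expressed in both species was found beside 22 of the 33 genes. At distances of 1 to 5 gene numbers on either side, with genes of the set left out, 40.6% to 60.6% of genes averaged 1 FPKM or more in *P. schneideri* and 40.6% to 60.6% in the 8 *P. qamdoensis* libraries.

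**Figure D5:**
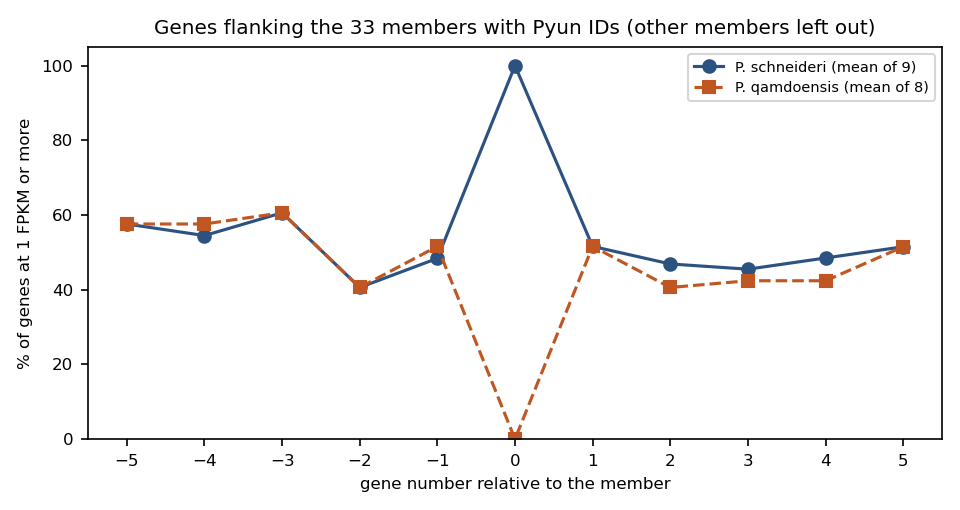
Share of genes at a mean of 1 FPKM or more in *P. schneideri* (9 libraries) and *P. qamdoensis* (8 libraries), by gene number relative to the 33 chosen reference genes at 0, with other genes of the set left out. The shares at 0 are 100% and 0% because the rule fixed them, and on both sides both lines run between 40.6% and 60.6%.

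None of the 55 genes was among the IDs in the study's supplementary gene lists, which were drawn up on *P. qamdoensis*. The rule kept the 55 genes at or near 0 in that species, so their absence says little. Of the mirror set, 2 genes were in the pathway lists and 1 was among the annotated pathway genes. A list that is cut off is incomplete and was counted only as far as it goes. Only 2 listed genes lay 1 or 2 gene numbers from a gene of the set. Pyun08G015240, beside Pyun08G015260, is listed under nucleus and cytoplasm and had 40.4 ± 11.3 FPKM in *P. schneideri* (SD, n = 9) and 51.3 ± 15.1 FPKM in the 8 *P. qamdoensis* libraries. Pyun06G025150, beside Pyun06G025140, is listed under DNA integration, nucleic acid binding and zinc ion binding, and was at 0 in all 9 *P. schneideri* libraries and at 0.492 ± 0.219 FPKM in the 8 *P. qamdoensis* libraries. These terms belong to the neighbours and not to genes of the set.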

How the data were processed

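Leaf mRNA of 2 *Populus* species under 3 films was measured in 18 libraries. The authors compared filtered Illumina reads with the genome of *P. yunnanensis*, and the deposited FPKM values of 39194 genes were used as they stand. The submitters' processing notes name HISAT2 and StringTie, with no version, and further scaling is not stated. Every column matched a sample label. Depth per library was not in the table, so no counting error is given, and a value of 0 is only a listed 0.

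The 55 genes were selected at 1 FPKM or more in 9 *P. schneideri* libraries and below 0.1 FPKM in 8 *P. qamdoensis* libraries. The genes, rules and tests were chosen with earlier results of these data known. Film differences in *P. schneideri* were fitted in limma 3.58.1 (R 4.3.3) on log2(FPKM + 1), with 1 mean per film over 9 libraries, eBayes with trend, genes of a mean of at least 0.5 FPKM and Benjamini-Hochberg adjustment over all 23821 genes tested. The fit was tested on simulated data. Thresholds (fold of 1.5, adjusted p below 0.01) follow the study, which names no test for them in the sources used here and reports on *P. qamdoensis* only. Exact permutation tests were two-sided. Counts, ratios and plots were made in Python 3.11.15 with pandas 2.3.3, numpy 2.4.6, scipy 1.17.1 and matplotlib 3.10.9.

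Named genes are the 10 of highest mean, the 2 of largest change in each direction per film comparison among those without overlap, the members of the 3 pairs, genes of high and low ratio in the library left out, and those at the thresholds. Alternatives were the pseudocount, the filter, 2 scalings, the trend, a replicate block, the libraries in the fit, the thresholds and each library left out in turn.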

Additional observations from a re-analysis of the deposited data

Results flagged for a closer look

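The library labelled *P. qamdoensis* BF replicate 1 entered neither the choice of the genes nor any film comparison. Its values followed neither species in the 55 genes or in the mirror set. In it 11 of the 55 genes reached 1 FPKM, and 30 of the 59 mirror genes were listed at 0. The rules fixed both counts at 0 in each of the other 8 *P. qamdoensis* libraries, so those libraries are no comparison for them. It had 83 genes at 1 FPKM or more that were below 0.1 FPKM in every other library. It was below 0.1 FPKM in 184 genes that were at 1 FPKM or more in every other library. The source of these differences was not tested.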

How the results depend on the processing

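The size of the set depended on its thresholds. The rule gave 55 genes, 82 at 0.5 FPKM or more and 36 at 2 FPKM or more in *P. schneideri*. It gave 97 below 0.5 FPKM and 39 at exactly 0 in *P. qamdoensis*, and 36 with the library labelled *P. qamdoensis* BF replicate 1 used as well. Leaving out each library in turn gave 55 to 58 genes. The mirror rule gave 59 genes, 90 at 0.5 FPKM or more, 40 at 2 FPKM or more, 126 below 0.5 FPKM and 52 at exactly 0. It gave 20 with that library used as well, and 59 to 67 with each library left out. In that library 19 genes reached 0.1 FPKM, and 5 reached 1 FPKM when only genes at exactly 0 in the 8 *P. qamdoensis* libraries were chosen. An adjusted p below 0.05 without a fold threshold called 1 gene in GF vs WF and 1 in the F test. An unadjusted p below 0.05, added after the data were seen, passed 8 in BF vs WF, 5 in GF vs WF, 2 in BF vs GF and 7 in the F test. Every other alternative called 0 of the 55 genes, including each library left out, although the filter of 5 FPKM left only 21 of them tested. The replicate block also called 0 in each comparison. Replicate numbers did not pair the libraries, since deviations of same-numbered libraries correlated at -0.28 to 0.10. The named film differences kept their sign under all alternatives run, but adjusted p crossed 0.05 for Pyun10G007980 in GF vs WF (0.0269 to 0.174, 0.052 with the replicate block) and newGene_2869 in BF vs WF (0.0137 to 0.407). The median level was 3.88 to 4.20 FPKM. Without read counts, a value of 0 sets no upper limit on expression.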
